A study of Mus musculus with 4 samples.

Results

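The PI3K, AKT and mTOR pathway was followed through 34 genes of insulin and growth factor receptors, PI3-kinases, AKT, the TSC and mTOR complexes and their targets and inhibitors, chosen by gene symbol among 24421 genes in 4 RNA-seq libraries of mouse brain cells. All 34 symbols were present. The 2 excitatory libraries hold fluorescent αCaMKII-positive cells and the 2 inhibitory libraries fluorescent vGAT-positive cells, 100 hand-picked cells in each library. Per the labels' protocols, the cells came from αCaMKII-Cre and vGAT-IRES-Cre transgenic lines kept by crossing to C57Bl/6J, used as males of 3 to 5 months; αCaMKII marks glutamatergic forebrain neurons and vGAT loads GABA into synaptic vesicles. The series concerns ERK signalling in Noonan syndrome, but no mutant allele or treatment is named for these libraries. Whether the 2 libraries of a label are from different animals is not stated, and the spread that the p-values measure may be technical.

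Insulin and insulin-like growth factors bind receptor tyrosine kinases that recruit PI3-kinase, whose lipid product brings AKT to the membrane, where PDK1 and mTOR complex 2 phosphorylate it. AKT in turn restrains GSK3, FOXO transcription factors and the TSC complex, and with TSC restrained the small GTPase RHEB activates mTOR complex 1, which drives protein synthesis and blocks autophagy. Amino acid and stress sensors such as the sestrins, DDIT4 and the GATOR1 complex hold mTOR complex 1 back. In neurons the pathway is known for its part in cell size, synaptic plasticity and, through mutations of its inhibitors, epilepsy.

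Values are log2(normalized reads + 1) as deposited, and every difference below is excitatory minus inhibitory on that scale. Values are given for replicates 1 and 2 in that order. Depth, estimated from the spacing of the lowest values, was about 62000000 to 74100000 reads per library, and 12609 to 12798 genes were above 0. The highest value of every library was that of the myelin gene Mbp, listed at 21.331 in all 4. Markers went with the labels only in part: Slc32a1, which encodes vGAT, had no value above 0 in any library, and the summed share of 8 inhibitory neuron markers was 84.0 and 79.5 CPM (CPM, the share of the library's summed linear values) in excitatory and 74.5 and 82.3 CPM in inhibitory libraries. Of these 8, 5 could be tested, and 3 did not pass in the deposited values. Lhx6 passed as higher in excitatory libraries, with 11.945 and 11.287 against 4.693 and 7.532 in inhibitory ones. Dlx2 passed as lower there, at 0 in both against 5.051 and 5.613. The 8 excitatory neuron markers summed to 1340 and 1317 CPM in excitatory and 1052 and 1060 CPM in inhibitory libraries. Singly, 4 of them passed as higher in excitatory libraries, 2 as lower and 2 did not pass. Transcripts of glia were abundant under both labels, with 8 astrocyte markers at 25781 and 26322 CPM in excitatory and 23720 and 21931 CPM in inhibitory libraries. These sums hide larger single differences: 6 of the 8 passed as higher in excitatory libraries, Aqp4 by 6.74-fold, and none as lower. After median-of-ratios scaling 3 of them (Aqp4, Aldh1l1 and Gja1) were higher there and 2 lower. The 6 oligodendrocyte markers summed to 37064 and 37641 CPM in excitatory and 51276 and 50398 CPM in inhibitory libraries. Taken singly, 3 of these 6 passed as higher in excitatory libraries and none as lower, and after median-of-ratios scaling 3 were higher and 2 lower. The 4 oligodendrocyte precursor markers summed to 37.2 and 34.9 CPM in excitatory and 76.6 and 94.2 CPM in inhibitory libraries. Among them Pdgfra was at 0 in both excitatory libraries, against 10.84 and 11.505 in inhibitory ones. Cspg4 was at 0 in every library but inhibitory replicate 2, where it had 1.832. The part of these cells in the results was not tested. The names excitatory and inhibitory therefore refer to the labels. The median difference of all 13619 tested genes was 0.52 in the deposited values, and after median-of-ratios scaling, called scaled below, it was -0.01. In these bulk libraries, fewer cells that express a gene and less RNA per cell cannot be told apart.

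In the deposited values both receptor genes, all 3 AKT and PDK1 genes and 4 of 5 tested kinases and targets below them were higher in excitatory libraries. Tsc1, Tsc2 and 4 of 6 tested genes of the stress and amino acid inhibitors were lower there. Other groups were mixed: of 3 PI3K catalytic subunit genes 1 was higher and 2 lower, and 1 of 3 regulatory subunit genes was lower. Of 5 tested mTOR complex genes, 3 were higher, among them Akt1s1, whose product inhibits mTOR complex 1, and Rptor was lower. Pdpk1, Rps6kb1 and Gsk3b no longer passed after scaling. Of the 34 members, 4 were listed at 0 in every library and 30 could be tested. With limma and an adjusted p threshold of 0.05, 13 were higher in excitatory libraries, 10 were lower there and 7 did not pass. Over all 13619 tested genes 71.8% passed, 45.0% as higher and 26.8% as lower in excitatory libraries, so the 76.7% of members that passed is near the share of all genes. After scaling, 10 members were higher and 13 lower in excitatory libraries, beside 32.4% and 33.5% of all genes, where 65.9% of all genes passed either way, and 20 passed in the same direction in both scalings, beside 59.3% of all genes. The median difference of the tested members was 0.40 in the deposited and -0.14 in the scaled values. The libraries of the labels did not overlap for 27 of the 30 tested members, against 86.4% of all tested genes. Differences above 2 log2 units in either direction were seen for 12 of 30 members (40.0%) and for 44.4% of all tested genes. Without 1 library at a time, the members that passed as higher in excitatory libraries numbered 7 and 8 when excitatory replicate 1 or 2 was left out and 8 and 10 when it was inhibitory replicate 1 or 2. Those lower there numbered 9 and 10 and, for the inhibitory replicates, 4 and 5. Of the 30 tested members, 10 passed with all libraries and also whichever library was left out, beside 32.0% of all tested genes.

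**Figure D1:**
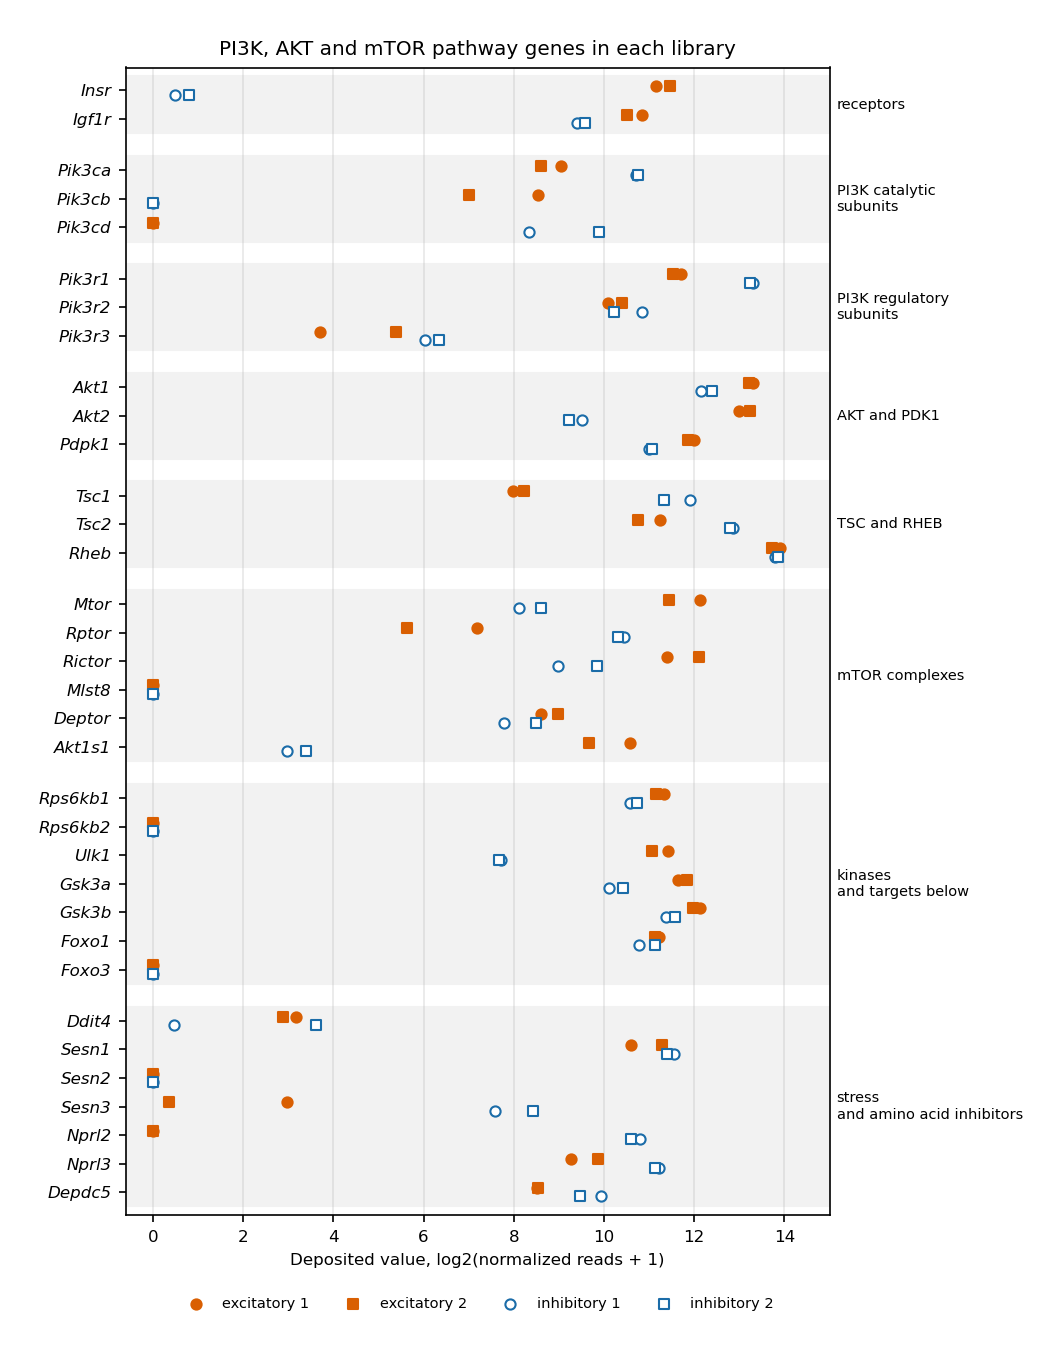
Deposited value, log2(normalized reads + 1), of each of the 34 genes in each of the 4 libraries, grouped by role, with excitatory libraries as filled and inhibitory libraries as open symbols. Insr, Akt2, Mtor, Ulk1 and Akt1s1 lie further right in excitatory libraries, Tsc1, Rptor, Sesn3 and Nprl2 further right in inhibitory libraries, and 4 genes are at 0 in all.

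**Figure D2:**
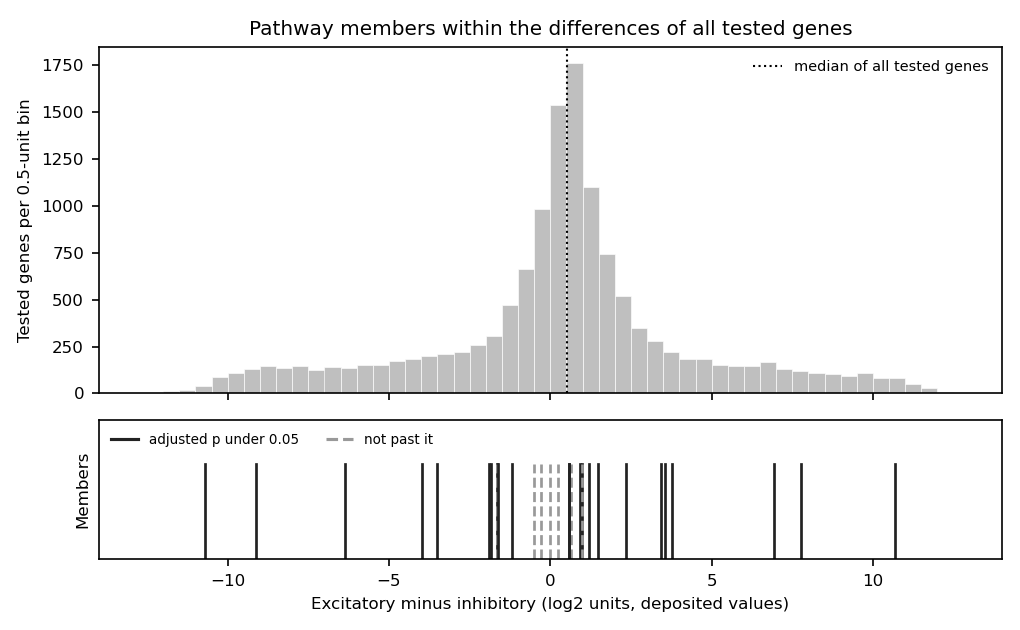
Upper panel, number of tested genes per bin of 0.5 log2 units of the difference excitatory minus inhibitory; lower panel, 1 line for each tested member, solid where the adjusted p was under 0.05. The members run from -10.70 (Nprl2) to 10.68 (Insr), and all 13619 tested genes from -13.77 to 13.45.

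Both receptor genes were higher in excitatory libraries, to very different extents. The insulin receptor gene Insr, at chr8:3122061-3279617 on the minus strand of mm10 in the GENCODE annotation, had 11.16 and 11.47 in excitatory libraries against 0.48 and 0.79 in inhibitory ones, where both values lie in the lowest band above 0 that these libraries show. The difference was 10.68 (SE 0.34, limma adjusted p = 9.49e-05); no fold is given because the inhibitory values are this low. Igf1r, the receptor of insulin-like growth factor 1, had 10.85 and 10.52 in excitatory and 9.41 and 9.58 in inhibitory libraries. It was 2.28-fold higher in excitatory libraries (difference 1.19, SE 0.22, limma adjusted p = 0.00749) and 1.57-fold after scaling (adjusted p = 0.0429). Its call was lost without excitatory replicate 1 (adjusted p = 0.0609), inhibitory replicate 1 (0.0900) or inhibitory replicate 2 (0.0746). The within-library log2 ratio of Insr to Igf1r, which depends on the scaling of a library only through the pseudocount, was 0.31 and 0.95 in excitatory and -8.93 and -8.80 in inhibitory libraries. With Insr this low in inhibitory libraries, the size of the ratio there depends on the pseudocount. No length correction enters these ratios, so they are compared between libraries only, and 4 of 9 pairs examined held a member at 0 and have no ratio.

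Among the catalytic subunit genes of class I PI3-kinase, Pik3cb was higher and Pik3cd and Pik3ca were lower in excitatory libraries. Pik3cb, the gene of p110β, had 8.525 and 6.999 in excitatory libraries and stood at 0 in both inhibitory ones (limma adjusted p = 4.51e-04). Pik3cd, the gene of p110δ, which is best known from leukocytes, was at 0 in both excitatory libraries, against 8.34 and 9.89 in inhibitory ones (limma adjusted p = 2.84e-04). The labels thus did not overlap for either gene, and the values within the label that held it spread by more than a log2 unit. Pik3ca, the gene of p110α, was present under both labels, with 9.054 and 8.602 in excitatory and 10.70 and 10.76 in inhibitory libraries, 3.73-fold lower in excitatory ones (difference -1.90, SE 0.24, limma adjusted p = 0.00214). That call was lost once inhibitory replicate 1 (adjusted p = 0.0650) or 2 (0.0664) was left out. Being listed at 0 in both libraries of a single label was seen for 3 of 30 tested members and for 15.5% of all tested genes. For any gene listed at 0 under a label, absent RNA and loss in library preparation or counting cannot be told apart. Beside Pik3cd stands a difference in leukocyte transcripts: the 10 microglia and leukocyte markers summed to 387 and 439 CPM in excitatory and 1384 and 1095 CPM in inhibitory libraries. Of these 10 markers, 6 were lower in excitatory libraries, none was higher and 4 did not pass (after scaling 9 were lower), and only Ptprc was listed at 0 in both excitatory libraries. Their part in the Pik3cd result was not tested.

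The 250 bases before the start of Pik3cb, Pik3cd and Nprl2 are shown because these are the members listed at 0 under a single label. They come from RefSeq on GRCm38.p6, the build known as mm10, read 5′ to 3′ on the strand of the gene, and capitals mark GGGCGG or its reverse complement CCGCCC, the motif of SP family factors. In the GENCODE annotation Pik3cb and Pik3cd reach further upstream, to 99140621 and 149702571, so the windows shown for them lie within those gene models.
Pik3cb, chr9:99140212-99140461, minus strand: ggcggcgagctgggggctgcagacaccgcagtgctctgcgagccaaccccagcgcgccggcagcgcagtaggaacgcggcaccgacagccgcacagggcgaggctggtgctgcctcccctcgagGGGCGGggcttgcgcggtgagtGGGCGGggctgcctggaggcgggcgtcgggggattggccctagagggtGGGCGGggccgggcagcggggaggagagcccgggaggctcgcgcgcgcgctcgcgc
Pik3cd, the start furthest upstream of 3 listed, chr4:149698709-149698958, minus strand: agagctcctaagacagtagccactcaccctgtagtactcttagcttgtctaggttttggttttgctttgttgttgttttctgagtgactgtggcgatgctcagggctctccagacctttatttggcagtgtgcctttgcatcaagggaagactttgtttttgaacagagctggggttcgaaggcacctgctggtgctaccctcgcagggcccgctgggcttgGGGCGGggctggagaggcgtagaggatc
Nprl2, chr9:107541959-107542208, plus strand: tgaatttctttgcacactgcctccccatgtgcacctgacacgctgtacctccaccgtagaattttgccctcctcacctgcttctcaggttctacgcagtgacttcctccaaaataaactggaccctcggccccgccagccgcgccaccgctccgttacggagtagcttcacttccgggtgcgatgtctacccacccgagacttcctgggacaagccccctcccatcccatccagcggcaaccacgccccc
The motif occurs in the windows shown for Pik3cb and Pik3cd and not in that of Nprl2. Of the other Pik3cd windows, the middle one holds it and the one furthest downstream does not. Windows were found for 31 of 34 members, 42 windows in all since some genes have several starts, and 28 (66.7%) hold GGGCGG on either strand, against 54.9% of 12693 windows of tested genes and 32.7% of all 32851 windows. The motif GTAAACA, bound by FOXO factors, was found only at Akt1 among the members (1 of 42 windows, 2.38%, against 2.14% for tested genes), and the E-box CACGTG only at Rheb (2.38% against 8.0%). The cyclic AMP response element TGACGTCA was in no member window (2.54% of windows of tested genes), and TATAAA was in 3 (7.14% against 6.66%). Each motif was counted on both strands and on its own, whether or not a match overlapped that of another motif, and a match describes the sequence only.

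Among the regulatory subunits, which hold the catalytic subunit and bind phosphorylated receptors and adaptors, only Pik3r1 passed the test in the deposited values. Pik3r1, the gene of p85α and its shorter forms, had 11.72 and 11.54 in excitatory against 13.31 and 13.23 in inhibitory libraries, 3.13-fold lower in excitatory ones (difference -1.65, SE 0.13, limma adjusted p = 5.08e-04), and it passed whichever library was left out. Pik3r2, the gene of p85β, had 10.09 and 10.40 in excitatory and 10.85 and 10.23 in inhibitory libraries, which overlap (difference -0.29, SE 0.29, limma adjusted p = 0.403). Pik3r3, the gene of p55γ, had 3.70 and 5.39 in excitatory and 6.03 and 6.34 in inhibitory libraries. Its difference of -1.65 (SE 0.65) did not pass (limma adjusted p = 0.0760) and passed after scaling (0.0423). Annotated exons of Pik3r3 share 1289 bases, or 24.3% of their length, with a further gene model on the same strand, Gm49337, so its values are uncertain.

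AKT and PDK1 genes were higher in excitatory libraries, Akt2 by far the most. Akt1, the most widely expressed AKT kinase gene, had 13.30 and 13.21 in excitatory and 12.14 and 12.40 in inhibitory libraries, 1.98-fold higher in excitatory libraries (difference 0.98, SE 0.14, limma adjusted p = 0.00331) and 1.36-fold after scaling (0.0328). Leaving out excitatory replicate 1 (adjusted p = 0.0813) or excitatory replicate 2 (0.0733) ended that call. Akt2, at chr7:27591552-27640826 on the plus strand, is the AKT kinase gene best known for insulin-stimulated glucose uptake and had 13.00 and 13.25 in excitatory against 9.52 and 9.22 in inhibitory libraries. It was 13.5-fold higher in excitatory libraries (difference 3.76, SE 0.20, limma adjusted p = 1.51e-04), 9.28-fold after scaling, and passed whichever library was left out. The ratio of Akt1 to Akt2 within a library was therefore 0.30 and -0.03 log2 units in excitatory and 2.63 and 3.19 in inhibitory libraries. Pdpk1, the gene of PDK1, had 11.997 and 11.869 in excitatory libraries against 10.998 and 11.058 in inhibitory libraries, 1.87-fold higher in excitatory libraries (difference 0.91, SE 0.15, limma adjusted p = 0.00507), but the scaled difference of 0.36 did not pass (0.0776).

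Tsc1 and Tsc2 were lower in excitatory libraries, unlike the AKT genes. Tsc1, the gene of hamartin, had 7.98 and 8.22 in excitatory and 11.91 and 11.33 in inhibitory libraries, 11.5-fold lower in excitatory ones (difference -3.52, SE 0.28, limma adjusted p = 4.72e-04), a call kept whichever library was left out. Tsc2, the gene of tuberin, which carries the activity that switches RHEB off, had 11.24 and 10.76 in excitatory against 12.87 and 12.79 in inhibitory libraries and was 3.55-fold lower in excitatory ones (difference -1.83, SE 0.21, limma adjusted p = 0.00139). That call was lost once inhibitory replicate 1 (adjusted p = 0.0693) or 2 (0.0651) was left out. Tbc1d7, the gene of the remaining subunit of the TSC complex, is not among the 34 and was named after its values were seen. It had 12.41 and 12.52 in excitatory against 8.79 and 8.53 in inhibitory libraries and was 13.99-fold higher in excitatory ones (difference 3.81, SE 0.19, limma adjusted p = 1.43e-04), a call kept whichever library was left out. Rheb, the GTPase gene on which the TSC complex acts, was nearly level, with 13.90 and 13.73 in excitatory and 13.79 and 13.86 in inhibitory libraries. Its difference of -0.01 (SE 0.11, limma adjusted p = 0.934) became -0.55 after scaling, where it passed (0.00690). The log2 ratio of Tsc1 to Tsc2 was -3.26 and -2.54 in excitatory and -0.96 and -1.45 in inhibitory libraries. Exons of Tsc2 share 693 bases, 7.20% of their length, with the opposite-strand gene Pkd1, which had at most 5.56 in any library.

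Of the 5 tested genes of the mTOR complexes, Mtor, Rictor and Akt1s1 were higher in excitatory libraries, Rptor was lower and Deptor did not pass. Mtor, the kinase of both complexes, had 12.13 and 11.44 in excitatory and 8.10 and 8.60 in inhibitory libraries, 10.8-fold higher in excitatory ones (difference 3.44, SE 0.33, limma adjusted p = 8.59e-04; 0.0543 without inhibitory replicate 1). Rictor, which defines mTOR complex 2, had 11.39 and 12.12 in excitatory against 8.98 and 9.85 in inhibitory libraries, 5.06-fold higher in excitatory ones (difference 2.34, SE 0.41, limma adjusted p = 0.00620). That difference was 2.70 and 1.98 without excitatory replicates 1 and 2, and 1.9 and 2.78 without inhibitory replicates 1 and 2. The call was lost whichever library was left out, in fits with fewer samples and a lone library in a label. Rptor, the gene of raptor, which defines mTOR complex 1, had 7.18 and 5.62 in excitatory and 10.43 and 10.30 in inhibitory libraries. It was 15.6-fold lower in excitatory libraries (difference -3.97, SE 0.57, limma adjusted p = 0.00306), a difference that no longer passed once inhibitory replicate 1 (adjusted p = 0.114) or 2 (0.107) was left out. The ratio of Rptor to Rictor was -4.21 and -6.50 log2 units in excitatory libraries and 1.46 and 0.45 in inhibitory libraries.

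Akt1s1 had the largest difference among the mTOR complex genes. It encodes PRAS40, an AKT substrate that inhibits mTOR complex 1, and had 10.57 and 9.67 in excitatory against 2.98 and 3.39 in inhibitory libraries (difference 6.94, SE 0.44, limma adjusted p = 2.41e-04, past the threshold whichever library was left out). Exons of Akt1s1 share 89 bases, 2.90% of their length, with the opposite-strand gene Tbc1d17, which had 10.96 and 10.64 in excitatory and 9.93 and 9.51 in inhibitory libraries. Deptor, the gene of a further inhibitor of both complexes, had 8.60 and 8.98 in excitatory and 7.78 and 8.50 in inhibitory libraries and did not pass (difference 0.65, SE 0.36, limma adjusted p = 0.162). Mlst8, a subunit gene of both complexes, was listed at 0 in all 4 libraries.

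**Figure D3:**
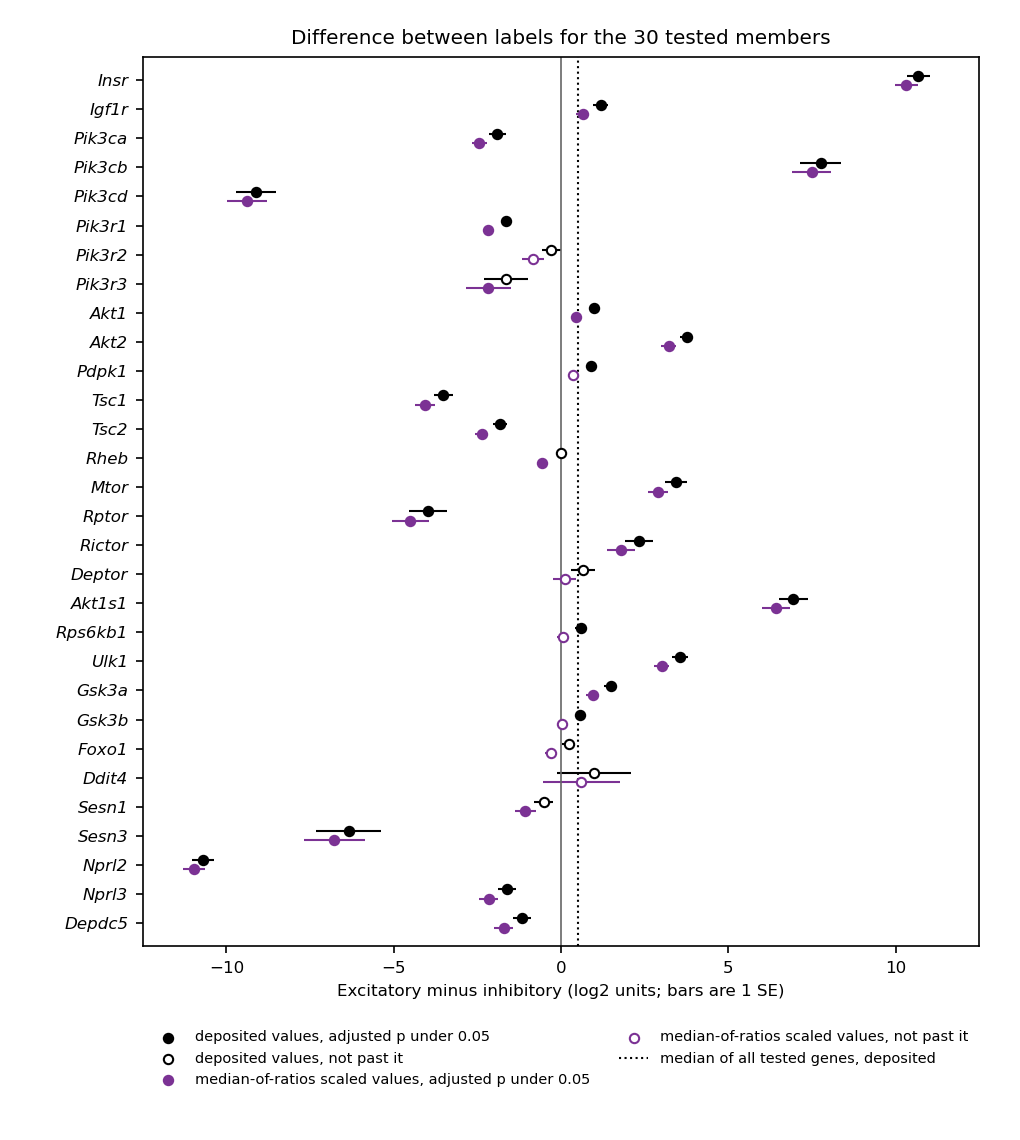
Difference excitatory minus inhibitory of each of the 30 tested members in log2 units, with 1 SE as bars, in deposited values (black) and after median-of-ratios scaling (purple); filled symbols passed limma's test at an adjusted p of 0.05. Scaling moves nearly every member left by about the median of all genes, 0.52, ends the calls of Pdpk1, Rps6kb1 and Gsk3b, and brings Pik3r3, Rheb and Sesn1 past the threshold.

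**Figure D4:**
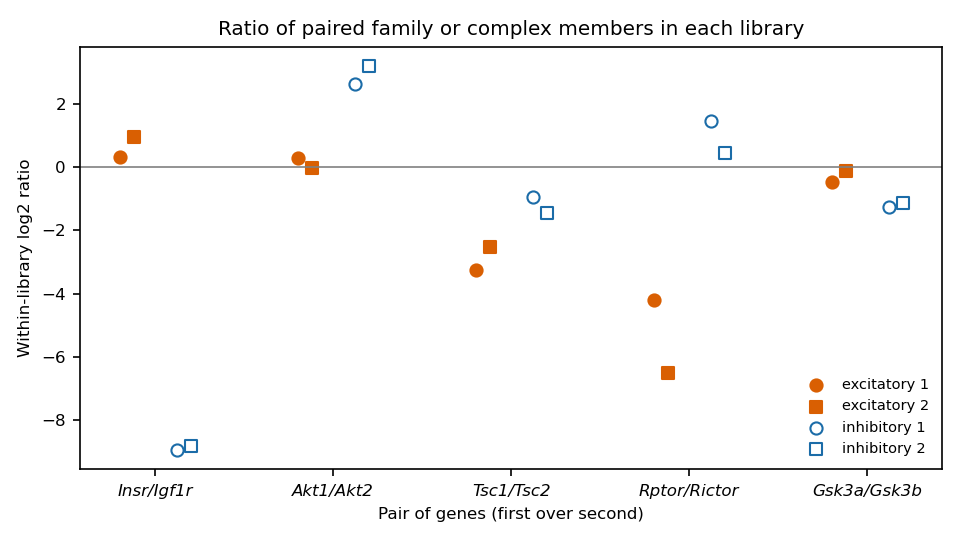
Within-library log2 ratio of 5 pairs of members in each library, excitatory libraries left of inhibitory ones. The libraries of the labels do not overlap for any of the 5 pairs. Single genes did not overlap in 86.4% of all tested cases, and no such share was computed for pairs of genes. The widest gap is that of Insr to Igf1r, 0.63 on average in excitatory and -8.86 in inhibitory libraries. Insr lies in the lowest band above 0 in inhibitory libraries, so the size of that gap depends on the pseudocount.

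Kinases and targets below AKT and mTOR were higher in excitatory libraries where they passed, 4 of 5 tested in the deposited values and 2 of 5 after scaling. Ulk1, the autophagy-starting kinase gene that mTOR complex 1 restrains, had 11.42 and 11.07 in excitatory against 7.72 and 7.66 in inhibitory libraries, 11.7-fold higher in excitatory ones (difference 3.55, SE 0.23, limma adjusted p = 2.72e-04), with a call kept whichever library was left out. Gsk3a had 11.65 and 11.85 in excitatory and 10.10 and 10.43 in inhibitory libraries, 2.80-fold higher in excitatory ones (difference 1.48, SE 0.20, limma adjusted p = 0.00254) and 1.92-fold after scaling (0.0121). The call was lost once excitatory replicate 1 (adjusted p = 0.0585) or 2 (0.0677) was left out, and 28.3% of its exon length is shared with the antisense gene 9130221H12Rik, which had 9.806 and 9.997 in excitatory and 9.15 and 9.40 in inhibitory libraries. Gsk3b, the gene of the other GSK3 kinase, had 12.13 and 11.97 in excitatory and 11.38 and 11.57 in inhibitory libraries. Its 1.49-fold difference passed in the deposited values (limma adjusted p = 0.0270) but was 0.03 log2 units after scaling (0.847), and it did not pass whichever library was left out (0.0745 to 0.130). The log2 ratio of Gsk3a to Gsk3b was -0.48 and -0.12 in excitatory and -1.28 and -1.14 in inhibitory libraries.

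The same held for the S6 kinase. Rps6kb1, which encodes S6K1, had 11.34 and 11.15 in excitatory and 10.58 and 10.73 in inhibitory libraries, a 1.503-fold difference (limma adjusted p = 0.0345) that was 0.05 log2 units after scaling (0.818) and did not pass whichever library was left out (0.0751 to 0.124). Rps6kb2, the gene of S6K2, was listed at 0 in all 4 libraries. Foxo1, a transcription factor gene whose product AKT keeps out of the nucleus, had 11.23 and 11.14 in excitatory and 10.77 and 11.13 in inhibitory libraries, a difference of 0.23 (SE 0.20, limma adjusted p = 0.340) that was -0.31 after scaling (0.187). Foxo3 was listed at 0 in all 4 libraries. Over all 24421 genes 39.2% were listed at 0 in every library, and a gene with no RNA in the cells and one lost in library preparation or counting cannot be told apart.

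All 3 subunit genes of GATOR1, the complex that switches the RAG GTPases and with them mTOR complex 1 off when amino acids are scarce, were lower in excitatory libraries. Nprl2 was at 0 in both excitatory libraries, against 10.80 and 10.59 in inhibitory ones (limma adjusted p = 9.49e-05). Nprl3 had 9.26 and 9.86 in excitatory against 11.23 and 11.14 in inhibitory libraries, 3.08-fold lower in excitatory ones (difference -1.62, SE 0.27, limma adjusted p = 0.00485). Depdc5 had 8.52 and 8.54 in excitatory against 9.94 and 9.47 in inhibitory libraries, 2.26-fold lower in excitatory ones (difference -1.17, SE 0.26, limma adjusted p = 0.0141). All 3 differences were further below 0 after scaling and passed. The call of Nprl3 was lost once inhibitory replicate 1 (adjusted p = 0.110) or 2 (0.101) was left out, and that of Depdc5 without excitatory replicate 1 (0.129), excitatory replicate 2 (0.126) or inhibitory replicate 1 (0.0679). Exons of Nprl3 share 17.7% of their length with the opposite-strand gene Mpg, which had 9.39 and 9.35 in excitatory and 10.05 and 9.76 in inhibitory libraries.

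Of the 4 stress-responsive inhibitors, Sesn3 alone passed the test in the deposited values. Sesn3, a sestrin gene of nutrient and oxidative stress, had 2.97 and 0.35 in excitatory against 7.58 and 8.43 in inhibitory libraries (difference -6.35, SE 0.97, limma adjusted p = 0.00377), a difference that no longer passed once inhibitory replicate 1 (adjusted p = 0.107) or 2 (0.124) was left out. Sesn1 had 10.60 and 11.29 in excitatory and 11.54 and 11.39 in inhibitory libraries; its difference of -0.52 (SE 0.28) did not pass (limma adjusted p = 0.156), whereas the scaled difference of -1.06 did (0.0348). Sesn2, the leucine-sensing sestrin gene, was listed at 0 in all 4 libraries. Ddit4, the gene of REDD1, which activates the TSC complex under stress, had 3.18 and 2.89 in excitatory and 0.46 and 3.61 in inhibitory libraries, which overlap. Its difference was 0.996 (SE 1.11, limma adjusted p = 0.457), and it was -0.58 without inhibitory replicate 1 and 2.57 without inhibitory replicate 2, where it passed (0.0275).

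Levels can be set beside each other between genes once divided by length. Per kilobase of merged exons, on the linear scale, Akt1 was the highest member in excitatory libraries, at 2384 ± 97.0 (SD, n = 2), followed by Rheb at 1867 ± 156, Akt2 at 1255 ± 150 and Gsk3a at 1190 ± 117; the last pair did not differ beyond its spread. In the inhibitory libraries Rheb came first at 1878 ± 70.9, followed by Akt1 at 1211 ± 156, Pik3r1 at 982 ± 36.6, Nprl2 at 826 ± 84.5 and Tsc2 at 754 ± 29.6, of which the last pair did not differ beyond its spread. Akt2 ranked 3 among the members in excitatory and 18 in inhibitory libraries, and Mtor 9 in excitatory and 23 in inhibitory libraries. The ranks were 25 in excitatory and 17 in inhibitory libraries for Rptor, and 24 in excitatory and 11 in inhibitory libraries for Tsc1.

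A list of 75 further genes of the pathway likewise differed in both directions. Of these, 6 were listed at 0 in all libraries and 65 could be tested, of which 25 were higher and 25 lower in excitatory libraries and 15 passed in neither direction. Scaled values gave 18 and 30. The share that passed, 76.9%, is again near the 71.8% of all genes, and the median difference was 0.19 against 0.52 for all tested genes. Higher in excitatory libraries by the largest differences were Prkaa1, a catalytic subunit gene of the energy sensor AMPK, and Telo2, which helps fold mTOR and related kinases. Prkaa1 had 11.72 and 11.44 and Telo2 8.11 and 8.49 in excitatory libraries, and both were listed at 0 in both inhibitory libraries. Flcn, the gene of folliculin, which acts on the RAG GTPases, had 10.68 and 10.17 in excitatory against 4.33 and 0 in inhibitory libraries, a difference that no longer passed once excitatory replicate 1 (limma adjusted p = 0.169) or 2 (0.156) was left out. Its partner gene Fnip1 went the other way, at 0 in both excitatory libraries, against 8.87 and 8.83 in inhibitory ones.

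Further genes near the receptors and PI3-kinase were among the largest differences as well. The growth factor gene Igf1 had 11.12 and 11.10 in excitatory and 5.85 and 6.05 in inhibitory libraries (difference 5.16, SE 0.24, limma adjusted p = 1.18e-04). Pik3ip1, an inhibitor of PI3-kinase, had 8.52 and 8.93 in excitatory against 0.47 and 3.39 in inhibitory libraries, a difference that no longer passed once excitatory replicate 1 (adjusted p = 0.123) or 2 (0.131) was left out. Pik3c3, the class III PI3-kinase gene VPS34 of endosomes and autophagy, was at 0 in both excitatory libraries, against 10.93 and 10.41 in inhibitory ones. So were Pik3ap1, an adaptor of B cells and myeloid cells, with 8.64 and 8.07 in inhibitory libraries, Pik3r6, a regulatory subunit of p110γ, with 7.53 and 7.66, and Grb10, an adaptor that inhibits insulin signalling, with 7.44 and 6.33. The sums of leukocyte markers given beside Pik3cd apply to Pik3ap1 and Pik3r6 too, and their part was not tested. Inpp4b, a lipid phosphatase gene, had 0 and 2.31 in excitatory against 11.08 and 10.997 in inhibitory libraries, a difference that no longer passed once inhibitory replicate 1 (adjusted p = 0.0586) or 2 (0.0574) was left out.

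Downstream, the lysosomal transcription factor gene Tfeb had 10.86 and 10.48 in excitatory and 2.51 and 5.71 in inhibitory libraries, a difference that no longer passed once excitatory replicate 1 (limma adjusted p = 0.155) or 2 (0.144) was left out. The FOXO genes outside the 34 differed in opposite directions, as Foxo4 had 4.83 and 5.69 in excitatory libraries against 0 in both inhibitory ones, while Foxo6 stood at 0 in both excitatory libraries, against 5.64 and 6.35 in inhibitory ones. Sgk3, a kinase gene related to AKT, had 3.55 and 3.47 in excitatory against 11.31 and 11.70 in inhibitory libraries (difference -7.996, SE 0.29, limma adjusted p = 9.49e-05). Prkag2, a regulatory subunit gene of AMPK, had 5.54 and 3.47 in excitatory against 12.75 and 12.62 in inhibitory libraries, a difference that no longer passed once inhibitory replicate 1 (adjusted p = 0.0652) or 2 (0.0633) was left out.

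Genes of GATOR2 and KICSTOR, complexes that act on GATOR1, differed in both directions. Seh1l, a subunit gene of GATOR2 that also belongs to the nuclear pore, had 12.13 and 11.84 in excitatory and 5.92 and 5.16 in inhibitory libraries (difference 6.44, SE 0.35, limma adjusted p = 1.63e-04). Itfg2, a KICSTOR gene whose product helps tether GATOR1 to lysosomes, had 1.401 and 0 in excitatory against 9.40 and 9.79 in inhibitory libraries (limma adjusted p = 2.63e-04). Of the 8 GATOR2 and KICSTOR genes listed, 2 were higher and 4 lower in excitatory libraries and 2 were listed at 0 in all.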

How the data were processed

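RNA of 100 hand-picked fluorescent cells per library was amplified with SMART-seq v4 and prepared with Nextera XT, per the labels' protocols, which do not describe strand-specific counting. The submitters' processing notes name TopHat, edgeR and mm10; no version, counting tool or annotation could be taken from them. The authors deposited 1 log2 value per gene and library, read here from the values as log2(normalized reads + 1). Low values fall in evenly spaced bands with an offset, from which whole reads could not be recovered, so no count test was run and the depth is an estimate.

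Genes that reached a value of 1 in 2 or more libraries were fitted together with limma 3.58.1 in R 4.3.3, with a mean-variance trend, and p-values were adjusted by Benjamini-Hochberg over all 13619 genes at a threshold of 0.05. With 2 libraries a label the fit had 2 residual degrees of freedom and a prior of 2.56. Folds are on the scale of the deposited values, which contain a pseudocount of 1 and understate changes of low genes. Alternatives were scaling by median-of-ratios or by upper quartile, no filter, a filter of 5, a pseudocount of 10, no trend, a replicate block, and leaving out each library. Every member was named. Of the further pathway genes, up to 8 in each direction by largest difference and those at 0 in both libraries of a label were named. A gene that this rule names is not reported here, and counts over lists include it. The members and lists were chosen with earlier results of these data known. CPM sums are shares of the linear values computed here. Exons were taken from GENCODE M21 and promoters from RefSeq on GRCm38.p6.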

Additional observations from a re-analysis of the deposited data

How the results depend on the processing

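Of all genes 9777 passed, against 6103 to 6551 without 1 library. Members higher in the excitatory libraries numbered 13, with 7 to 10 without 1 library, and members lower there 10, with 4 to 10. For the further pathway genes these counts were 25 with 15 to 20, and 25 with 14 to 20; the lowest were without excitatory replicate 1 (15) and 2 (16), and without inhibitory replicate 2 (14) and 1 (15). Each such fit has fewer samples, and its lone library is assumed to vary like the others. Counts stayed within 1.5 times under the other settings. The 4 members whose difference changed sign did not pass with all libraries: Pik3r2 lay between -0.60 and 0.016 without 1 library, Rheb between -0.0965 and 0.0745, Ddit4 between -0.58 and 2.57, and Foxo1 was -0.31 under median-of-ratios and -0.29 under upper-quartile scaling. Same-numbered libraries did not deviate together (r = -0.0019 across 13619 genes, which are not independent), and with the replicate block 12 members were higher and 11 lower in the excitatory libraries, against 13 and 10, as Rps6kb1 no longer passed (limma adjusted p = 0.0588) and Pik3r3 did (0.0373), with 9782 genes in all. With 2 libraries a label, small differences are beyond these data.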
